A study of Mus musculus with 6 samples.

Results

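Integrins are cell surface receptors built from 1 alpha and 1 beta chain, and Tregs use them to leave the blood, to hold on to other cells and to stay in tissues. The genes of 10 integrin chains were examined in Tregs with and without Zfp335. They were the alpha chains Itgae, Itgav, Itgal, Itga4, Itga6 and Itgam and the beta chains Itgb1, Itgb2, Itgb7 and Itgb3. They were taken by symbol from a table of 13709 gene rows, in which 23 integrin chains had a row, and all 10 passed the filter on low counts. Itgb8 was kept out of the list and is given with the other chains.

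The RNA came from sorted Tregs (CD4+YFP+CD25+) of C57BL/6 mice, in 3 WT and 3 KO samples, and was measured by RNA-Seq. WT mice carried Foxp3Cre alone, and KO mice carried Foxp3Cre with Zfp335fl/fl, so that both genotypes made Cre and YFP from the Foxp3 locus and only KO Tregs lost the floxed gene. The mice were 2 weeks of age according to the methods, and the labels name both lymph nodes and spleen as the source. The study describes KO mice as having systemic inflammation, shown mainly at an older age than sampled here. Loss of Zfp335 in the cell and the inflamed surroundings therefore cannot be told apart here. In heterozygous females without inflammation, the study found most Treg and T helper signature genes almost equal to controls. This series holds no such samples. Whether a sample held 1 mouse or several was not stated, and the p-values measure only the spread between these samples.

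In T cells the alpha and beta chains together decide what an integrin binds. Paired with alpha E (Itgae, the CD103 chain), beta 7 binds E-cadherin on epithelium, and paired with alpha 4 it binds MAdCAM-1 on gut vessels. The beta 1 chain pairs with many alpha chains to bind VCAM-1, fibronectin, laminin or collagen. The beta 2 chain is limited to leukocytes and forms LFA-1 with alpha L, the receptor of ICAM-1 and ICAM-2, whereas alpha M beta 2 is best known from myeloid cells. The alpha V chain pairs with several beta chains, some of which release active TGF-beta from its latent form. Binding is switched on from inside the cell, when Rap1, talin and kindlin reach the beta chain tail.

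Values of single samples are given in the order of replicates 1 to 3. The libraries held 32032631 to 40728419 counts. Zfp335 was 101, 94.3 and 103 CPM (counts scaled to library size) in the WT samples against 37.0, 37.9 and 40.2 CPM in the KO samples. Cd4, Cd3e, Foxp3 and Il2ra were all present, at 329 CPM or more in each sample. Foxp3 and Cd3e were lower, and Cd4 higher, in every KO sample than in any WT sample. WT replicate 3 stood apart from WT replicates 1 and 2, with a biological coefficient of variation of 0.263 within WT and 0.126 without it, against 0.070 within KO. The log2 fold change of each of the 10 chains is therefore given with and without this sample. In bulk RNA, fewer cells of a type and less RNA per cell cannot be told apart.

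Of the 10 chains, 6 were called, with a fold change above 1.5, p under 0.05 and an adjusted p under 0.1 in edgeR's quasi-likelihood test. Itgam, Itgb3 and Itgb1 rose in KO, and Itgae, Itga4 and Itga6 fell. Over all 13594 genes tested, 24.4% were called, 11.9% as higher and 12.5% as lower. The 10 chains and the gene lists below were chosen with earlier results of these data known. Their counts are therefore not a test of the lists against all genes. KO and WT values did not overlap for 9 of the chains, and they did not overlap for 53.8% of all genes. With no cutoff on fold change, 7 chains had an adjusted p under 0.1, as did 47.0% of all genes. The median log2 fold change of the 10 chains was 0.07, and it was -0.04 over all genes. Without WT replicate 3, 5 of the 10 chains were called, with 26.8% of all genes called.

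**Figure D1:**
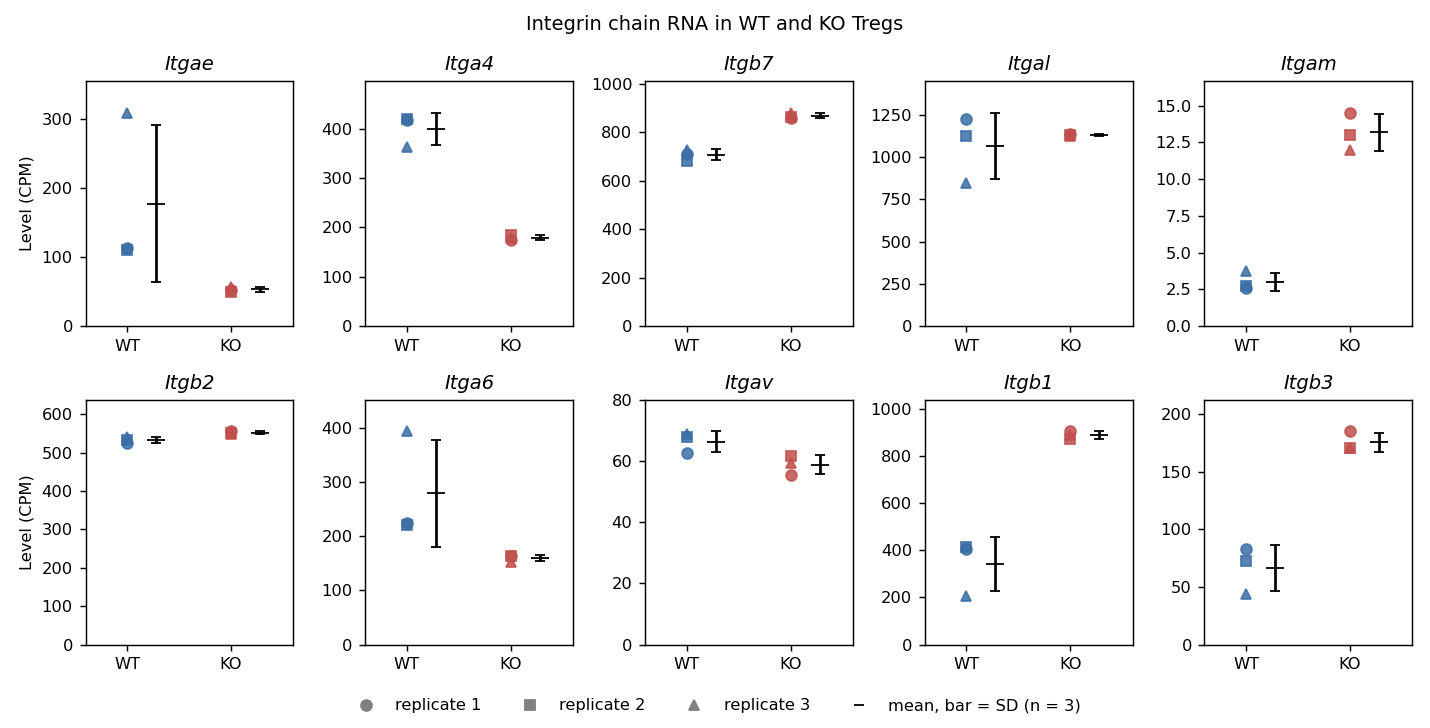
Level of each of the 10 integrin chains in CPM (vertical axis, from 0) in the 3 WT and 3 KO samples, with marker shape giving the replicate number and black bars the mean ± SD (n = 3). KO values lie within narrow bands, and the triangle of WT replicate 3 stands away from the other WT samples in Itgae (308 CPM), Itga6 (394 CPM), Itgb1 (208 CPM) and Itgb3 (43.9 CPM).

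Itgae and Itga4, the chains that pair with beta 7, both fell in KO Tregs. Itgae, on chromosome 11 at 73090583 to 73147446 (mm10), was 113, 110 and 308 CPM in the WT samples against 52.4, 49.6 and 56.7 CPM in the KO samples. Every KO sample lay below every WT sample, and WT replicate 3 was 2.77 times the mean of the other two. WT averaged 177 ± 114 CPM (SD, n = 3) and KO 52.9 ± 3.56 CPM, which gave -1.74 as log2 fold change (SE 0.38, adjusted p 0.00919 by edgeR). Without WT replicate 3 it was -1.08 (SE 0.07), so that the fold was 2.11 in place of 3.35. Haspin lies within Itgae on the other strand and shares no exon bases with it. Haspin had 5.20 to 11.9 CPM in WT and 26.9 to 29.1 CPM in KO, the opposite direction.

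Itga4, the CD49d chain, fell with little spread between samples. It was 417, 419 and 362 CPM in the WT samples against 174, 185 and 178 CPM in the KO samples. WT and KO values stood well apart, with means of 399 ± 32.1 and 179 ± 5.23 CPM. KO differed from WT by -1.16 on the log2 scale (SE 0.08, adjusted p 5.36e-05 by edgeR), and -1.23 without WT replicate 3. Only 5.5% of all genes had a lower log2 fold change. Itga4 lies on chromosome 2 at 79255426 to 79333123, and 1124 of its exon bases are shared with Cerkl on the opposite strand. Cerkl itself had 1.09 to 2.98 CPM.

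Itgb7, the partner of both, did not fall. It was 711.5, 683 and 729 CPM in the WT samples against 861, 864 and 880 CPM in the KO samples, so that each KO sample was above each WT sample. The log2 fold change of 0.30 (SE 0.06, adjusted p 0.00711 by edgeR) was larger than the spread between replicates but under the fold cutoff, and it was 0.31 without WT replicate 3. Itgb7 lies on chromosome 15 at 102215995 to 102231944.

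The promoters of this pair are shown because the alpha chain fell while its beta chain did not. RefSeq (GRCm38.p6) held a promoter, from 250 bases before to 50 after the annotated start, for 5 of the 10 chains (Itga4, Itgav, Itgam, Itgb1 and Itgb7). Capitals mark matches, on either strand, to 1 of 6 motifs: GGGCGG for the GC box, TGTGGT for Runx factors, CACGTG for the E-box, GGAAGT for Ets factors, the CCAAT box by its letters, and TATAAA for the TATA box. The window of Itga4 is chr2:79255176-79255475 (plus strand) and that of Itgb7 is chr15:102231886-102232185 (minus strand).
Itga4: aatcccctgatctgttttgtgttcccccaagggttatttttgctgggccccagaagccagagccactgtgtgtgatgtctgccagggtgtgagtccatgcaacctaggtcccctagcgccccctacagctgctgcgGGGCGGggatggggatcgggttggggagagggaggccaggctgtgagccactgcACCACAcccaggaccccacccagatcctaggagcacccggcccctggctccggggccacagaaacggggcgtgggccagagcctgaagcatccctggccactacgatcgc
Itgb7: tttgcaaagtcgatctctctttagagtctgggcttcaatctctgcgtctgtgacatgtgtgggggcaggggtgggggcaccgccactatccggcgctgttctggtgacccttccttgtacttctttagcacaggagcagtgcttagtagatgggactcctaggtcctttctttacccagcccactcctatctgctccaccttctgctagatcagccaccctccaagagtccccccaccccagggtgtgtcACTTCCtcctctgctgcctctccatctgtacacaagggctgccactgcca
The Itga4 window held 1 GC box and 1 Runx motif, which 35.7% and 16.8% of 32851 promoters hold. The Itgb7 window held 1 Ets motif, which 23.8% hold. CpG dinucleotides numbered 10 in Itga4 and 5 in Itgb7, and the median promoter had 7.

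The beta 1 and beta 3 chains rose together. Itgb1, the CD29 chain on chromosome 8 at 128685654 to 128733200, was 404, 414.5 and 208 CPM in the WT samples against 905.5, 874 and 891 CPM in the KO samples. The lowest KO sample was above the highest WT sample, and WT replicate 3 was 0.509 times the mean of the other WT samples. The mean rose from 342 ± 116 to 890 ± 15.7 CPM (SD, n = 3), with a difference of 1.38 on the log2 scale (SE 0.24, adjusted p 0.00296 by edgeR). Without WT replicate 3 the log2 fold change was 1.12 (SE 0.05).

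Itgb3, which forms the vitronectin receptor with alpha V and the fibrinogen receptor of platelets with Itga2b, was 82.8, 72.6 and 43.9 CPM in the WT samples. In the KO samples it was 185, 171 and 170 CPM, and again no KO value reached down to WT. KO differed from WT by 1.40 on the log2 scale (SE 0.21, adjusted p 0.00158 by edgeR), and 1.17 without WT replicate 3. None of 5 listed platelet markers (Pf4, Ppbp, Gp9, Gp1ba and Gp1bb) had a row in the table, whose rows all sum to 60 counts or more. Itga2b had 3.17 to 5.41 CPM in WT and 2.19 to 4.23 CPM in KO. Itgb3 lies on chromosome 11 at 104608000 to 104670476.

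The promoter of Itgb1 is shown as that of a chain that rose, at chr8:128685404-128685703 (plus strand), with the same use of capitals.
Itgb1: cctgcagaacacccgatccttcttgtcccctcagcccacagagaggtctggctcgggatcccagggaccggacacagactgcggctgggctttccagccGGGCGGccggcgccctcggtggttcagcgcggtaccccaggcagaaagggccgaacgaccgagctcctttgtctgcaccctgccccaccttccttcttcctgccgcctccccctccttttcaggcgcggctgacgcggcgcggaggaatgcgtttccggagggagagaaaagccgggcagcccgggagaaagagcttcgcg
It held 1 GC box and no other motif of the 6. It had 27 CpG dinucleotides, more than 84.5% of promoters.

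The alpha chains Itga6 and Itgav were lower in every KO sample, and only Itga6 was called. Itga6, which forms a laminin receptor with beta 1, was 225, 221 and 394 CPM in the WT samples against 163.5, 163 and 153 CPM in the KO samples. KO differed from WT by -0.81 on the log2 scale (SE 0.21, adjusted p 0.0191 by edgeR). Without WT replicate 3 it was -0.48, at an adjusted p of 3.95e-06, under the fold cutoff and no longer called. Itgav was 62.8, 67.9 and 68.8 CPM in the WT samples against 55.6, 61.9 and 59.3 CPM in the KO samples. These values came close without overlapping, and the chain was not called (log2 fold change -0.18, SE 0.08, adjusted p 0.107 by edgeR, and -0.15 without WT replicate 3). Both genes lie on chromosome 2, Itga6 at 71745616 to 71858416 and Itgav at 83724397 to 83806916.

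WT replicate 3 differed from the other WT samples in the direction opposite to KO for Itgae, Itga6, Itgb1 and Itgb3. It was higher for the first pair, which fell in KO, and lower for the second, which rose. On the log2 scale its distance from the mean of WT replicates 1 and 2 was 1.47 for Itgae, 0.82 for Itga6, -0.98 for Itgb1 and -0.82 for Itgb3, and the median distance over all genes was 0.25 in size. Foxp3 moved in the same direction as Itgae and Itga6 and opposite to Itgb1 and Itgb3. It was 738, 642 and 1190 CPM in the WT samples against 460 to 472 CPM in KO. Foxp3 was called lower in KO (log2 fold change -0.88, adjusted p 0.0122 by edgeR), but not without WT replicate 3 (-0.57). Its part in the chain levels was not tested. For Itgam (0.47) and Itga4 (-0.21) the distance of WT replicate 3 had the same direction as the KO change, and for Itgal, which was not called, it was -0.47. Itgav, Itgb2 and Itgb7 in WT replicate 3 were 1.02 to 1.05 times the mean of the other WT samples.

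LFA-1, the main integrin of T cell adhesion, showed no called change in either chain. Itgal, on chromosome 7 at 127296260 to 127335138, was 1225, 1123 and 847 CPM in the WT samples against 1137, 1133 and 1124 CPM in the KO samples. The KO values fell inside the WT range. KO differed from WT by 0.09 on the log2 scale (SE 0.13, adjusted p 0.630 by edgeR), and it turned to -0.06 without WT replicate 3. Itgb2, on chromosome 10 at 77530252 to 77565708, was 526, 532 and 542 CPM in the WT samples against 555, 552 and 549 CPM in the KO samples, with a difference of 0.05 on the log2 scale (SE 0.06, adjusted p 0.548), and 0.06 without WT replicate 3. The KO samples lay just above the WT samples, with a mean 1.03 times theirs.

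Itgam, which encodes CD11b, was the scarcest of the 10 chains and had the highest log2 fold change among them. Its counts were 95, 90 and 124 in the WT samples against 530, 523 and 423 in the KO samples. These were 2.58, 2.74 and 3.72 CPM in WT and 14.5, 13 and 12 CPM in KO, with no overlap. KO differed from WT by 2.13 on the log2 scale (SE 0.19, adjusted p 0.000188 by edgeR), 4.37-fold, and 2.8% of all genes had a higher log2 fold change. Without WT replicate 3 it was 2.30.

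Markers of myeloid cells were compared next. Of 9 listed markers 8 had a row (Cd14 had none), and 5 of these were called higher in KO, as were 11.9% of all genes. The call of Lyz2 was lost without WT replicate 3 (0.55). The 8 markers summed to 60.4 to 65.8 CPM in WT and 111.5 to 122 CPM in KO. Of these sums Cst3, which was not called, gave 30.3 to 33.9 and 35.6 to 40.5 CPM. Csf1r, the receptor that macrophages need to survive, had 1.49, 2.68 and 0.391 CPM in the WT samples against 6.27 to 7.29 CPM in KO. Adgre1, which encodes F4/80, had 0.326, 0.244 and 0.0901 CPM against 0.448 to 1.34 CPM. Within WT, Itgam was highest in replicate 3. There Csf1r, Adgre1, Lyz2 and Cd68 were lowest, Mpeg1, Fcgr3 and Fcer1g were highest, and Cst3 lay between. Of 5 neutrophil markers, 3 had a row (S100a8, S100a9 and Csf3r) and all 3 were called higher. Their sum was 0.0543 to 0.578 CPM in WT and 4.51 to 7.25 CPM in KO. The study reports high S100a8 and S100a9 in a dysfunctional Treg subset of its single-cell data, from younger mice. Which cells these 3 transcripts came from here was not tested. NK cell markers had a row for 3 of 4 and summed to 3.59 to 5.83 and 14.9 to 16.2 CPM, with 2 called higher. Of these sums Eomes gave 1.80 to 3.24 CPM in WT and 11.1 to 11.6 CPM in KO, and Ncr1 was not called. B cell markers summed to 16.0 to 18.1 CPM in WT and 10.8 to 11 CPM in KO. Both CD8 T cell markers had a row and summed to 9.32 to 13.2 CPM in WT and 12 to 12.7 CPM in KO, and 1 of them, Cd8a, was called higher (mean 1.86 CPM in WT and 3.71 CPM in KO). The part of such cells in the levels of Itgam and the other chains was not tested. Itgam lies on chromosome 7 at 128062640 to 128118491, and 3450 of its exon bases are shared with the gene model Gm49368 on the same strand, so its count is uncertain.

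The Itgam promoter, at chr7:128062390-128062689 (plus strand), is shown as that of the chain with the highest log2 fold change of the 10.
Itgam: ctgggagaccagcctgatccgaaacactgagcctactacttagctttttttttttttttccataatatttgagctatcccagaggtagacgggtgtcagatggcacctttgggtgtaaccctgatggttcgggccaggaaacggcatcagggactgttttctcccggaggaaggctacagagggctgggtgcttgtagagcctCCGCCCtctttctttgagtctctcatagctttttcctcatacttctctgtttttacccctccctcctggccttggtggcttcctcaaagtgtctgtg
It held 1 GC box, on the minus strand, and 6 CpG dinucleotides.

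**Figure D2:**
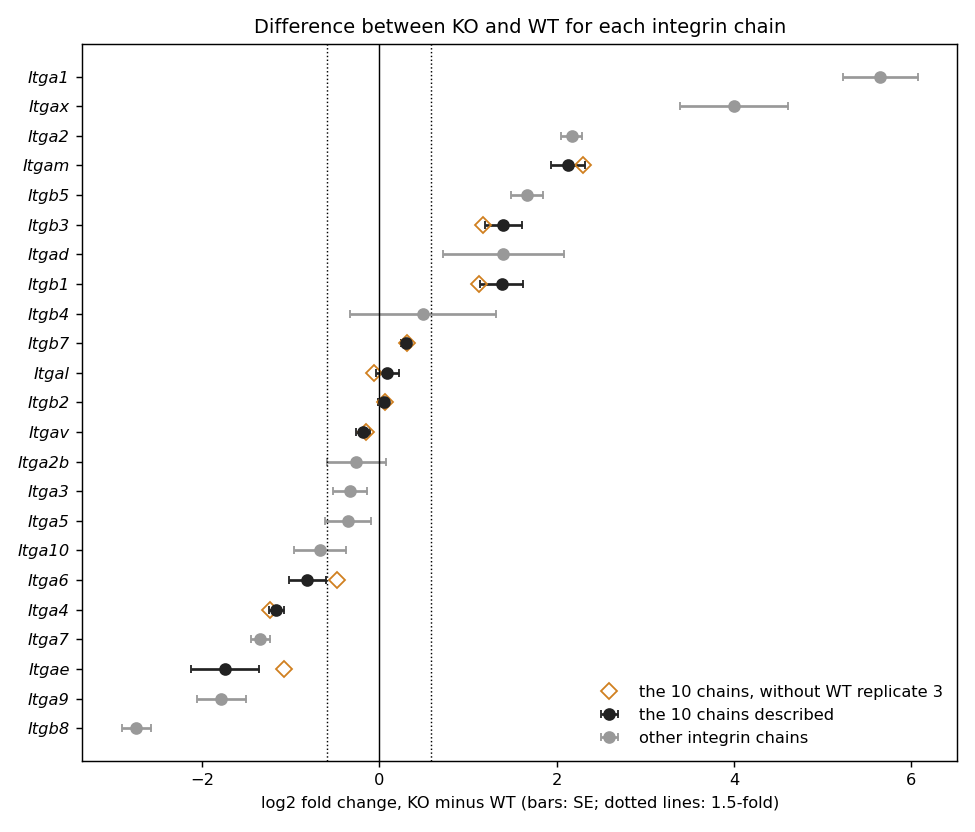
log2 fold change of KO minus WT (horizontal axis, bars are SE) for the 10 chains (black) and 13 other integrin chains (grey), with open diamonds for the 10 chains without WT replicate 3 and dotted lines at a fold of 1.5. Itgam, Itgb3 and Itgb1 stay right of the upper line and Itga4 and Itgae left of the lower one with and without that sample, while Itga6 moves from -0.81 to -0.48.

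To compare chains with each other, CPM were divided by transcript length. On this scale of CPM per kilobase, Itgb7 was highest in both genotypes, at 264 ± 8.69 in WT and 324 ± 3.81 in KO (SD, n = 3). In WT the order then ran Itgal (205), Itgb2 (180), Itgb1 (89.7), Itga6 (65.0), Itgae (46.0), Itga4 (40.9), Itgb3 (11.5), Itgav (9.43) and Itgam (0.649). The ranges of neighbors overlapped 5 times in WT, between Itgal and Itgb2, Itgb1 and Itga6, Itga6 and Itgae, Itgae and Itga4, and Itgb3 and Itgav. In KO, Itgb1 stood in second place at 233 ± 4.12, ahead of Itgal (218) and Itgb2 (186). Itga6 (37.1), Itgb3 (30.3), Itga4 (18.3), Itgae (13.8), Itgav (8.35) and Itgam (2.83) followed, and no neighbors overlapped. The scale takes 1 transcript per gene as its length, so levels of different genes depend on that choice.

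The make-up of the integrin pool was read from the same levels. The sum of all alpha chains was 363 to 400 CPM per kilobase in WT and 315 to 319 in KO, whereas the sum of all beta chains was 525 to 569 in WT and 771 to 781 in KO. Itgal made up 61.2%, 59.5% and 40.8% of alpha chain RNA in the WT samples against 68.5% to 68.7% in KO. Itgae made up 7.61%, 7.89% and 20.1% in the WT samples against 4.05% to 4.68% in KO. The share of Itga4 was 10.7% ± 1.30 in WT and 5.77% ± 0.171 in KO (SD, n = 3). Among beta chains, Itgb1 held 18.6%, 19.3% and 10.4% in the WT samples against 29.7% to 30.4% in KO, and Itgb2 held 32.6% ± 1.93 and 23.9% ± 0.21. Shares sum to a fixed total, so the fall of Itgb2 in share goes with no fall in its level. The 10 chains together made up 93.9% to 96.1% of alpha and 98.4% to 99.5% of beta chain RNA in the 6 samples.

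**Figure D3:**
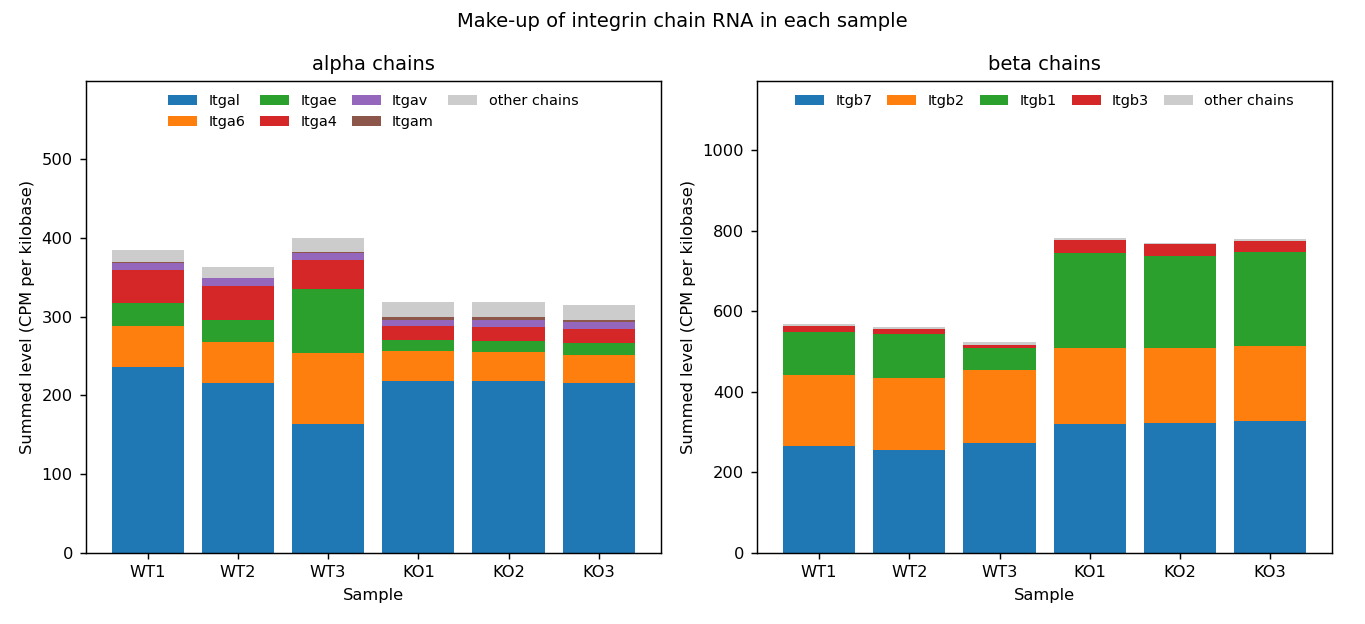
Summed level of alpha chains (left) and beta chains (right) in CPM per kilobase for each sample, with 1 color per chain and grey for all other integrin chains. Alpha chain bars reach 363 to 400 in WT and 315 to 319 in KO, and beta chain bars reach 525 to 569 in WT and 771 to 781 in KO, with taller blocks of Itgb1 and Itgb7 in KO.

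Ratios between chains that can pair, and between both partners of beta 7, were compared next, by an exact permutation test over samples. With 3 samples against 3 this test cannot give a p below 0.10, and 9 ratios were compared. Itgae to Itgb7 was 0.110, 0.113 and 0.295 in the WT samples against 0.0401 to 0.0449 in KO, which was 3.64-fold lower in KO, and 2.63-fold lower without WT replicate 3. Itga4 to Itgb7 was 0.137 to 0.169 in WT and 0.0556 to 0.0587 in KO. These ratios dropped from both sides, since the alpha chains fell while Itgb7 was slightly higher.

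Ratios of alpha chains to beta 1 and beta 3 were lower in KO in every sample. Itga4 to Itgb1 was 0.403, 0.395 and 0.680 in the WT samples against 0.0752 to 0.0825 in KO, 6.07-fold lower and 5.08-fold lower without WT replicate 3. Itga6 to Itgb1 was 0.493, 0.472 and 1.68 in the WT samples against 0.152 to 0.165 in KO, a fold of 4.6 that was 3.04 without WT replicate 3. Itgav was 0.0840 to 0.179 of Itgb1 in WT and 0.0332 to 0.0383 in KO, and 0.621 to 1.29 of Itgb3 in WT and 0.247 to 0.297 in KO. Itgam to Itgb2 rose from 0.00313 to 0.00439 in WT to 0.0140 to 0.0167 in KO. In these 7 ratios the groups did not overlap, and each had the smallest p that the exact test allows, 0.10 (0.13 after Benjamini-Hochberg adjustment over the 9).

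In the other ratios, WT and KO overlapped. Itgal to Itgb2 was 1.33, 1.21 and 0.893 in the WT samples against 1.17 in each KO sample (exact permutation p 1). Itgae to Itga4 was 0.687, 0.668 and 2.16 in the WT samples against 0.683 to 0.808 in KO (exact permutation p 0.90). For this last ratio the KO samples stood with WT replicates 1 and 2, and WT replicate 3 was the one apart.

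**Figure D4:**
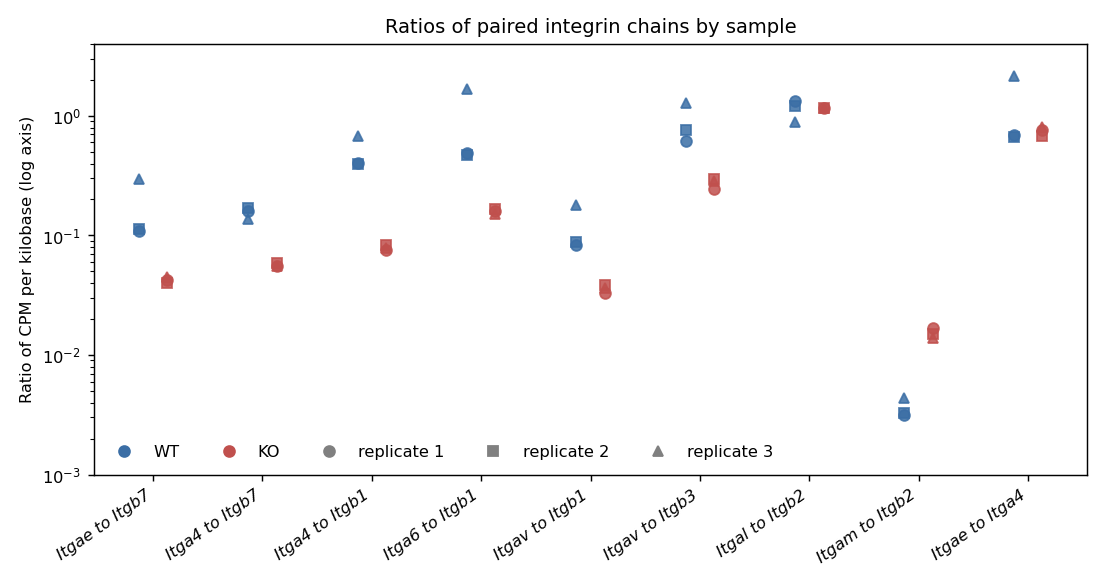
Ratio of CPM per kilobase (vertical log axis) for 9 pairs of integrin chains in the 3 WT (blue) and 3 KO (red) samples, with marker shape giving the replicate number. KO lies below WT in 6 pairs and above it for Itgam to Itgb2, and the groups overlap for Itgal to Itgb2 and Itgae to Itga4.

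Other integrin chains were examined to see which partners the 10 chains had. Of 16 listed, 13 had a row and were tested. Among them 4 rose and 3 fell, with a median log2 fold change of -0.26, and 24.4% of all genes were called. Itga1 and Itga2, the alpha chains of the beta 1 collagen receptors, both rose. Itga1 was 0.380, 0.852 and 0.150 CPM in the WT samples against 21.2, 24.6 and 23.7 CPM in the KO samples, from counts of 5 to 28 in WT (log2 fold change 5.65, SE 0.42, adjusted p 7.9e-05 by edgeR). Without WT replicate 2 the log2 fold change was 6.4, and without WT replicate 3 it was 5.25. Itga1 shares 685 exon bases with the gene model Gm49395 on the same strand. Itga2 rose from 11.7 ± 1.69 to 52.8 ± 0.743 CPM (a log2 difference of 2.17, SE 0.12). Itgax, the CD11c chain that pairs with beta 2, rose from 0.436 to 7.03 CPM, and 5 of the myeloid markers above were also called higher. Itgb5, a partner of alpha V, rose from 3.20 to 10.1 CPM.

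Itgb8, the partner with which alpha V releases TGF-beta on Tregs, fell from 52.4 ± 7.80 to 7.82 ± 1.22 CPM (a log2 difference of -2.74, SE 0.16, adjusted p 2.74e-05 by edgeR). Itga7, a laminin receptor chain, fell from 24.1 to 9.55 CPM, and Itga9, a close relative of Itga4, from 9.51 to 2.76 CPM. The chains that edgeR did not call were Itga2b, Itga3, Itga5, Itga10, Itgad and Itgb4, with log2 fold changes of -0.26, -0.33, -0.35, -0.67, 1.40 and 0.49. Itgad was called without WT replicate 3 (1.84), and Itgb4, at 0.0300 to 0.821 CPM, turned to -0.05 without it. Itga10 (adjusted p 0.104 by edgeR) was called lower by DESeq2 (-0.65), and in edgeR with library totals alone, with 10 counts required in every sample, with GC and length offsets and without WT replicate 2 (-0.70, -0.66, -0.68 and -0.82). Its log2 fold change was -0.43 without WT replicate 3. Itga10 shares 1739 exon bases with Gm42957, so its count is uncertain.

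The partners were then sorted by the chain they share, a grouping made after the values were seen. Over all genes tested, 24.4% were called, 11.9% as higher and 12.5% as lower. Of 10 tested alpha chains that can pair with beta 1, Itga1 and Itga2 rose, Itga4, Itga6, Itga7 and Itga9 fell, and 4 were not called. The call of Itga6 was lost without WT replicate 3 (-0.48). The summed level of these 10 alpha chains was 117 to 154 CPM per kilobase in WT and 78.4 to 81.6 in KO. Itgb1 itself went from 54.6 to 109 in WT to 229 to 237 in KO. Thus the alpha chain sum exceeded Itgb1 in each WT sample and was below it in each KO sample. The margin was small in WT replicates 1 and 2 (118 against 106 and 117 against 109) and wide in WT replicate 3 (154 against 54.6). Which side was higher depends on the transcript length taken for each gene. Of 4 partners of beta 2, Itgam and Itgax rose and Itgal and Itgad were not called. Of 4 tested partners of alpha V, Itgb1, Itgb3 and Itgb5 rose and Itgb8 fell. Some of these chains pair with more than 1 partner, and RNA levels do not show which receptors were on the surface.

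The machinery that switches integrins on was then compared. Of 17 tested activators, which include talin, kindlin and the Rap1 GTPases with their exchange factors, edgeR and DESeq2 called none, and the median log2 fold change was 0.11. With no cutoff on fold change, 9 of them had an edgeR adjusted p under 0.1, as did 47.0% of all genes. Each had a fold change under the cutoff. Fermt3, the kindlin of blood cells, was 413 ± 5.91 CPM for WT against 445 ± 6.04 CPM for KO. Fyb, the adaptor ADAP that links the T cell receptor to integrins, was 435 ± 33.2 and 507 ± 3.99 CPM. Rap1b, named after its values were seen, was 298 ± 46.1 and 435 ± 35 CPM (log2 fold change 0.55) and was called without WT replicate 3 (0.65) and without KO replicate 1.

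Of 8 genes that restrain integrins, only Flna was called, and 24.4% of all genes were called. It encodes filamin A, an actin cross-linker that competes with talin for beta chain tails. It was 1529, 1355 and 1082 CPM in the WT samples against 2479, 2390 and 2349 CPM in the KO samples (log2 fold change 0.86, SE 0.12, adjusted p 0.00122 by edgeR). No KO sample came near the WT range. Cytip, which detaches cytohesin-1 from LFA-1, was 694 ± 147 CPM for WT against 762 ± 5.61 CPM for KO and was not called.

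Of 11 tested adaptors of adhesion sites, 2 rose and 2 fell, and 24.4% of all genes were called. Vcl, which encodes vinculin, rose from 6.63 ± 2.39 to 22.5 ± 1.73 CPM (a log2 difference of 1.76), and Zyx, which encodes zyxin, from 184 ± 27.2 to 299 ± 20.7 CPM (0.70). Without WT replicate 3, Zyx was just under the fold cutoff (0.58). Actn1, a cross-linker of actin and integrins, fell from 170 ± 23 to 98.2 ± 2.57 CPM (-0.79), whereas its relative Actn4 was 310 ± 9.81 and 432 ± 2.64 CPM (0.48, not called). Parva, at 1.51 CPM for WT against 0.648 CPM for KO, was called lower (-1.22), a call lost without WT replicate 1, WT replicate 2, KO replicate 1 or KO replicate 3. Ptk2b, the focal adhesion kinase relative of T cells, was 323 ± 17.2 and 300.5 ± 5.04 CPM and was not called.

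Integrin ligands and proteins that present them were examined as RNA in the same cells. Of 10 tested, 4 rose and 1 fell in edgeR, which called 24.4% of all genes. The median log2 fold change was 0.62, and DESeq2 called 4 higher and 0 lower. Fn1, which encodes fibronectin, a ligand of several beta 1 and alpha V integrins, was 6.33, 7.73 and 5.38 CPM in the WT samples against 36.8, 36.9 and 35.4 CPM in the KO samples (log2 fold change 2.49, SE 0.14, adjusted p 2.77e-05 by edgeR). KO values were nearly equal and far above WT. Cdh1, which encodes E-cadherin, the ligand of alpha E beta 7, rose from 0.608 ± 0.320 to 2.08 ± 0.170 CPM. Spp1, which encodes osteopontin, had 1, 0 and 3 counts in the WT samples against 26, 42 and 20 counts in the KO samples.

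Icam1 and Icam2, the ligands of LFA-1, lay close to the fold cutoff. Icam1 was 56.6, 52.0 and 97.4 CPM in the WT samples against 101, 109 and 101 CPM in the KO samples (log2 fold change 0.59, edgeR adjusted p 0.0659). WT replicate 3 was close to KO, and the call was lost without any 1 of the other 5 samples and with library totals alone (0.56). Icam2 fell from 32.8 ± 1.63 to 21.8 ± 1.51 CPM (-0.59), a call that was lost with DESeq2 and with RLE scaling (-0.57 in both), and without WT replicate 3, KO replicate 2 or KO replicate 3. The list therefore held 3 calls without KO replicate 2 or KO replicate 3. Tgfb1 was 249 ± 18.5 and 220 ± 25 CPM, and Lrrc32, which encodes GARP, the protein that holds latent TGF-beta on Tregs, was 456 ± 58 and 346 ± 5.78 CPM, and neither was called.

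Genes that act with integrins in homing were not called by edgeR or DESeq2 in any of 5 cases. With no cutoff on fold change, 4 had an edgeR adjusted p under 0.1, as did 47.0% of all genes. Selplg, which encodes the P-selectin ligand, was 442 ± 72.5 and 645 ± 20 CPM (0.55), and was called without WT replicate 3 (0.68). Cd44, Klf2 and S1pr1 had log2 fold changes of -0.11, -0.37 and -0.16.

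**Figure D5:**
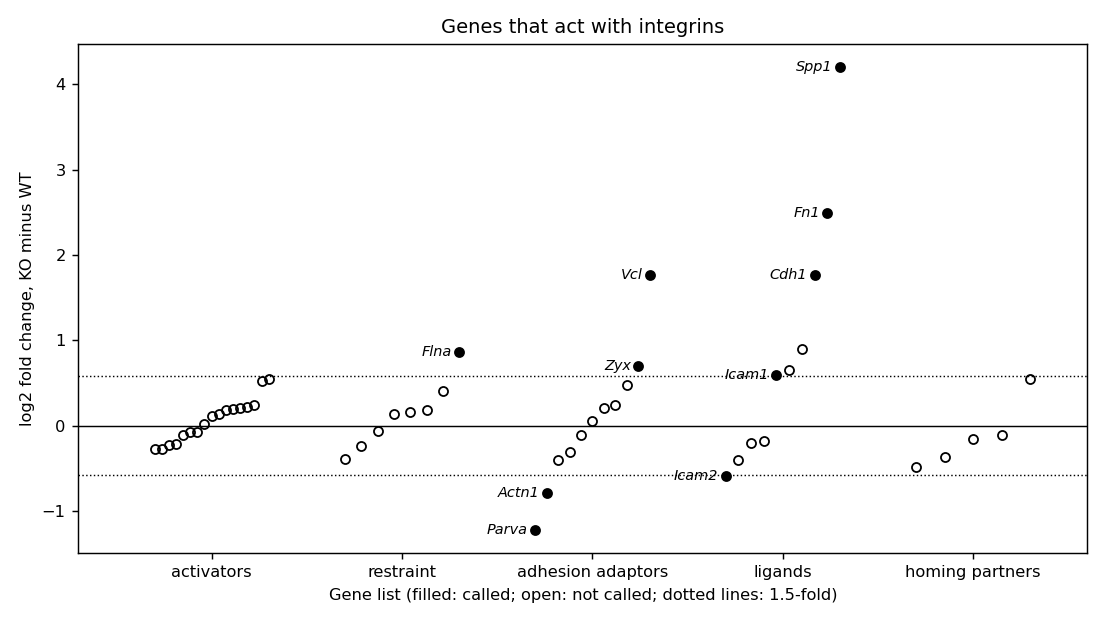
log2 fold change of KO minus WT (vertical axis) for each tested gene that activates, restrains or anchors integrins, binds them or acts with them in homing, with filled points for called genes and dotted lines at a fold of 1.5. The 17 activators and 5 homing genes lie between the lines, and Fn1 (2.49) and Spp1, whose fitted value rests on WT counts of 3 or fewer, lie highest.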

How the data were processed

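RNA-Seq counts of 3 WT and 3 KO Treg samples were used, grouped by their titles. The authors deposited whole-number counts per gene without normalization. The methods name SOAPnuke for read filtering, HISAT2 for alignment to mm10 (at most 1 position kept for a read) and StringTie for quantification. How counts were made whole, the strand setting and the annotation are not given in the sources used here, so genes that share exon bases are uncertain, and every gene summed to 60 counts or more.

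Counts were tested with edgeR 4.0.16 (R 4.3.3), using filterByExpr at a minimum count of 10, TMM scaling and the quasi-likelihood F-test of KO against WT with no covariate, with two-sided p adjusted by Benjamini-Hochberg over all 13594 genes tested. The cutoffs (fold 1.5, p 0.05, adjusted p 0.1) are those of the study, and its tool, DESeq2 (1.42.0), was an alternative. SE is the log2 fold change divided by the square root of F. CPM are relative to TMM-scaled totals, and 3 counts correspond to 0.0747 to 0.0913 CPM, which covers counting error only. Positions and lengths came from GENCODE M21 (GRCm38), with 1 principal transcript per gene, for 97.87% of rows. Overlap with coding gene models was checked by exon bases. The procedure was tested on simulated data with the same spread in both genotypes, which the real samples did not have.

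The 10 chains and the gene lists were chosen with earlier results of these data known. Named genes are the 10 chains, Zfp335, all other integrin chains, the called genes of each list and the 2 with the highest level per kilobase in each. 1 gene of the homing list is counted but not reported here by name. Alternatives were other scalings (RLE, library totals), filters (none, 10 counts in every sample) and cutoffs, offsets for GC content and length, a replicate block and leaving out each sample.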

Additional observations from a re-analysis of the deposited data

How the results depend on the processing

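Itgae, Itga4, Itgam, Itgb1 and Itgb3 kept their calls under DESeq2, RLE scaling, library totals alone, both filters, both other cutoffs, GC and length offsets, the replicate block and each left-out sample. Over these settings their log2 fold changes ran from -2.00 to -1.08, -1.23 to -1.13, 2.03 to 2.30, 1.12 to 1.54 and 1.17 to 1.59. Itga6 was lost without WT replicate 3 (-0.48) and with glmTreat, which tests against a fold of 1.5 (adjusted p 0.322). Itgb7 (0.30) joined the calls when adjusted p under 0.05 was the sole criterion. Leaving out 1 sample gave 5 to 6 of the 10 chains, and 2867 to 3667 of all genes. Over single samples left out, Itgal ran from -0.06 to 0.20, Itgb4 from -0.05 to 1.10, the KO over WT fold of Itgal to Itgb2 from 0.925 to 1.13, and that of Itgae to Itga4 from 0.615 to 1.11. Each turned only without WT replicate 3, and the cause was not tested.

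With adjusted p under 0.05 as the sole criterion, 5244 genes were called, 31 of them in the 6 lists of genes beside the 10 chains, with 5 activators, 4 restraining genes, 7 adaptors and 3 homing genes. With glmTreat, 1686 genes, 2 adaptors and 3 ligands were called. Requiring 10 counts in every sample left 3 ligands, since Spp1 was no longer tested and Icam2 was at -0.58. GC and length offsets added 1 homing gene. Over single samples left out, calls ranged from 0 to 1 activator, 3 to 5 ligands and 0 to 1 homing gene.

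Deviations from the group means did not run together in samples that share a replicate number (correlations of 0.038, 0.040 and -0.012), and the replicate block gave 3190 calls over all genes and 6 of the 10 chains. Depth limits the scarce chains most. Itga1, Itgax, Itgad and Itgb4 had 28 counts or fewer in each WT sample.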
